A study of Arabidopsis thaliana with 12 samples.

Results

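Whole Arabidopsis seedlings mutated in the 3 bromodomain protein genes BRD1, BRD2 and BRD13, with BRM intact, were set beside wild-type (WT) seedlings of the same Col-0 ecotype. All seedlings were 14 days old and were grown under long days. Total RNA was sequenced in 3 libraries of WT and 3 of the brd1 brd2 brd13 triple mutant, written brd1,2,13, out of 12 libraries in the series. The other 6 came from the brm-1 mutant, which has lost BRM, and from brm-1 brd1,2,13, which is called the combined mutant here. The labels do not give the alleles of the brd mutations, and they do not say whether the 3 libraries of a genotype came from separate plantings.

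The deposited gene table held 31837 records, and the comparison of WT with brd1,2,13 was made by the authors for 19048 of them (status OK). These 19048 records are the ones described, and the other 12789 had no test. The level of a transcript was given as FPKM (sequenced fragments per kilobase of transcript, scaled for depth), with 1 value per genotype that the authors made from its 3 libraries. Neither a spread between libraries nor a test can be given from 1 value, and every difference below is a comparison of 1 value with 1 value. The depth of the libraries is unknown.

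SWI/SNF complexes are multi-subunit machines that use ATP to move or evict nucleosomes and so set how accessible DNA is to transcription factors. In Arabidopsis, BRM is an ATPase at the core of one class of these complexes. BRD1, BRD2 and BRD13 are accessory subunits of the BRM-containing class, and their bromodomain is a fold that binds acetylated lysines, as on histone tails. The comparison asks which transcripts differ when these accessory subunits are lost and the ATPase gene is intact.

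The transcripts of the mutated genes were looked at first. BRD13 (AT5G55040, chr5:22327173-22331840) had 14.4 FPKM in WT and 0.223 FPKM in brd1,2,13, which was 64.7-fold lower. BRD1 (AT1G20670, chr1:7164166-7168166) had 12.7 FPKM in WT and 4.36 FPKM in brd1,2,13, and BRD2 (AT1G76380, chr1:28651102-28654580) had 7.04 FPKM and 3.05 FPKM. Transcripts of BRD1 (2.90-fold lower) and BRD2 (2.31-fold lower) were thus still counted in the mutant, and whether these reads come from the disrupted part of the genes was not tested. BRM (AT2G46020) itself had 17.5 FPKM in WT and 18.5 FPKM in brd1,2,13, against 0.0954 FPKM in brm-1, although its record overlaps another. With 1 FPKM added to both values, the log2 ratio of BRD13 went from -6.02 to -3.66 and that of BRD2 from -1.21 to -0.99, under the 2-fold limit. The reference names these loci only as bromodomain protein genes, and their symbols were assigned from general knowledge of the family, so these levels are no independent check of the labels. In brm-1, where the BRD genes are not mutated, BRD2 stood at 22.5 FPKM, BRD1 at 15.7 FPKM and BRD13 at 18.7 FPKM.

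More transcripts were higher in brd1,2,13 than were lower. Of the 17841 records that were above 0 in both genotypes and reached 1 FPKM in the higher one, 573 were at least 2-fold higher in brd1,2,13 (3.21%) and 227 were at least 2-fold lower (1.27%), a ratio of 2.52. At 4-fold or more there were 160 higher and 27 lower records. Most transcripts barely moved: the median log2 ratio of all 17841 was 0.01, and their middle 95% lay between -0.77 and 1.16. The lower quartile was -0.15 and the upper quartile 0.17. With 1 FPKM added to both values, which damps ratios of rare transcripts, 327 records were at least 2-fold higher and 98 lower. Of the higher records, 239 were below 1 FPKM in WT and passed the floor only through brd1,2,13, and of the lower ones 102 were below it in brd1,2,13. A rare transcript that passes in this way has to differ, so the counts and medians of gene lists below describe their members and are not support. The counts carry no error of their own, and their shares of 3.21% and 1.27% serve as the background against which each gene group is read.

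Transcripts past 2-fold were mostly of low level. Among records between 1 and 5 FPKM, 8.01% were at least 2-fold higher and 3.37% at least 2-fold lower. At 20 FPKM or more, the shares were 1.33% and 0.456%. The middle 95% of log2 ratios spanned -1.14 to 1.97 at 1 to 5 FPKM, -0.68 to 0.99 at 5 to 20 FPKM and -0.55 to 0.70 at 20 FPKM or more. A 2-fold difference of an abundant transcript therefore lay further from the bulk of its peers than the same difference of a rare one. The 573 higher records had a median of 1.32 FPKM in WT and 4.24 FPKM in brd1,2,13, and the 227 lower records had medians of 3.62 and 1.203 FPKM. Just inside the limit was PP2CA, with 39.7 and 80.6 FPKM, and just outside it CORI3, with 15.3 and 30.5 FPKM. On the lower side, EXPA5 lay just inside with 22.5 FPKM in WT and 11.2 FPKM in brd1,2,13, and AAE5 just outside with 26.6 and 13.3 FPKM.

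**Figure D1:**
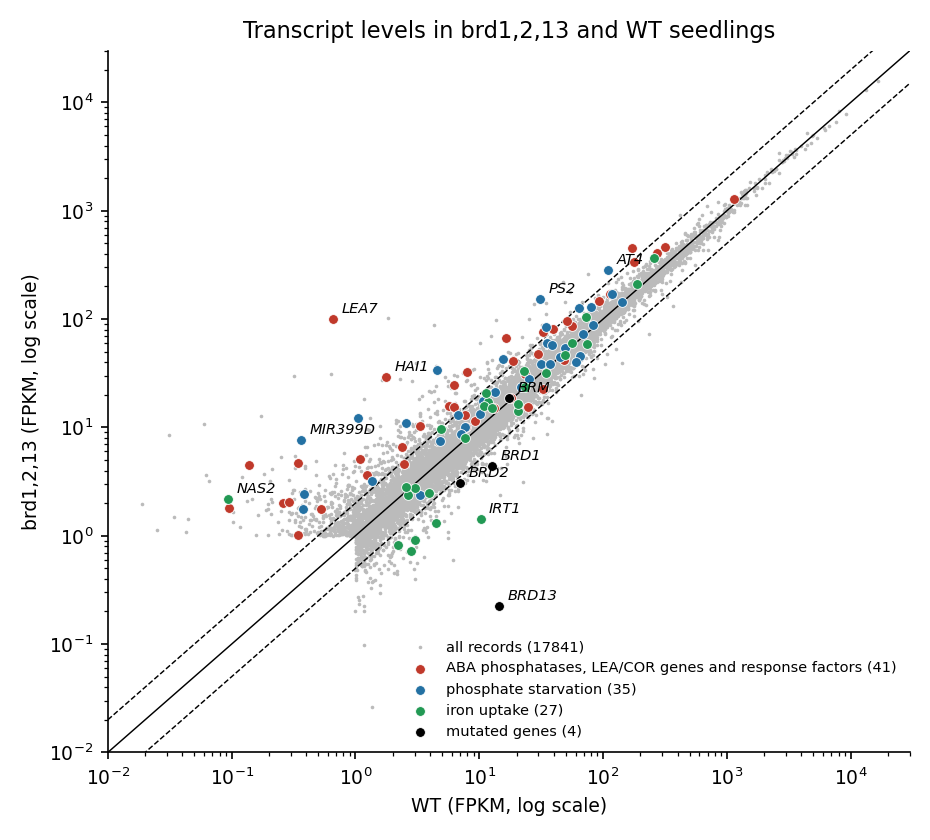
FPKM of 17841 records in WT (x axis) and brd1,2,13 (y axis), both on log scales, with 1 value per genotype and no error. The solid line marks equal levels and the dashed lines a 2-fold difference. Red, blue, green and black points mark members of gene lists. LEA7 lies far above the upper dashed line with 0.658 FPKM in WT and 99.97 FPKM in brd1,2,13, and BRD13 and IRT1 lie below the lower one.

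The higher transcripts included many of the response to abscisic acid (ABA), a hormone that accumulates under drought and in maturing seeds. When ABA binds its PYL receptors, these inhibit clade A protein phosphatases 2C (PP2Cs), which frees SnRK2 kinases to activate bZIP transcription factors. These factors bind promoters with the core ACGTG, known as the ABA-responsive element, and turn on genes for protective proteins and, as feedback, genes of the PP2Cs themselves.

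Of the clade A PP2C genes, 6 passed the 1 FPKM floor, and all 6 had a higher level in brd1,2,13. At least 2-fold higher were 3 of the 6, against 3.21% of all records, and the median log2 ratio was 0.84. HAI1 (AT5G59220), a highly ABA-induced phosphatase gene, had 1.76 FPKM in WT and 29.0 FPKM in brd1,2,13, 16.5-fold more. HAI2 (AT1G07430), a close relative, had 0.343 FPKM in WT and 4.72 FPKM in brd1,2,13. PP2CA (AT3G11410) had 39.7 and 80.6 FPKM. ABI1 (AT4G26080), a founding member of the clade, stayed under the limit with 55.9 FPKM in WT and 86.8 FPKM in brd1,2,13. HAI2 passed the floor only through brd1,2,13. Leaving out records that overlap another raised the list's median to 2.403.

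Receptors, kinases and bZIP factors mostly stayed under the 2-fold limit. None of 8 receptor genes was past 2-fold, and their log2 ratios had a median of -0.15 and a lowest value of -0.74. PYL4 (AT2G38310) stood at 72.9 FPKM in WT and 43.5 FPKM in brd1,2,13, and PYL5 (AT5G05440) at 33.9 and 20.7 FPKM, so these abundant receptor transcripts were lower. Of 7 kinase and bZIP genes, all were above their WT level, with a median log2 ratio of 0.34 and a lowest of 0.28. Only ABF1 (AT1G49720), a bZIP factor gene whose record overlaps another, was past 2-fold, with 1.56 FPKM in WT and 3.13 FPKM in brd1,2,13. In ABA synthesis and breakdown, 2 of 9 genes were at least 2-fold higher, against 3.21% of all records. NCED3 (AT3G14440), which encodes the rate-limiting enzyme of stress-induced ABA synthesis, had 1.198 FPKM in WT and 6.59 FPKM in brd1,2,13, and CYP707A4 (AT3G19270), which encodes an ABA-degrading enzyme, had 1.19 and 2.79 FPKM.

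Genes of protective proteins included some of the largest ratios. The list of late embryogenesis abundant (LEA), dehydrin and cold-regulated (COR) protein genes had 18 members that passed the floor. Of the 18, 9 were at least 2-fold higher and none lower, against 3.21% and 1.27% of all records. The median log2 ratio was 1.12 against 0.01 for all records, and 3 of the 9 were below 1 FPKM in WT. LEA7 (AT1G52690, chr1:19619745-19623461) went from 0.658 FPKM in WT to 99.97 FPKM in brd1,2,13, although its record overlaps another. XERO2 (AT3G50970), a dehydrin gene with an overlapping record, had 16.3 FPKM in WT and 66.8 FPKM in brd1,2,13. KIN1 (AT5G15960), a cold- and ABA-induced gene, had 7.90 and 32.4 FPKM, and its neighbour COR6.6 (AT5G15970) had 173 and 452 FPKM. KIN1 and COR6.6 are near-identical copies, so the division of reads between them is uncertain. COR6.6 was the member of highest level past 2-fold. EM6 (AT2G40170), a LEA gene known from dry seeds, had 0.0954 FPKM in WT and 1.803 FPKM in brd1,2,13. ERD6 (AT1G08930), which encodes a sugar transporter, was the 1 member with a lower level, at 32.8 and 22.5 FPKM.

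Several genes outside the list were also higher, but they were chosen for their high ratios or after their values were seen. A record that joins LTI65 and LTI78, 2 genes of ABA- and cold-induced proteins, had 31.9 FPKM in WT and 88.3 FPKM in brd1,2,13, and its genes cannot be told apart. A record that joins LEA4-5 with 2 neighbours had 12.4 and 69.2 FPKM. The gene AT3G02480, which has no symbol in the reference and encodes a LEA family protein, had 1.83 FPKM in WT and 102 FPKM in brd1,2,13, and AT3G17520, another LEA family gene, had 0.0598 and 10.7 FPKM. RAB18 (AT5G66400), a classical ABA-induced dehydrin gene, had 13.6 and 98.4 FPKM, but its reads are split over overlapping records. TSPO (AT2G47770), a membrane protein gene with an overlapping record, had the highest ratio of all genes named here, with 0.0311 FPKM in WT and 8.57 FPKM in brd1,2,13. Its ratio of 275 rests on a WT level far below the floor.

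Transcription factors of the ABA and drought response were higher as well. Of 17, 10 were at least 2-fold higher and none was at least 2-fold lower, against 3.21% and 1.27% of all records. The median log2 ratio was 1.2, and 4 of the 10 were below 1 FPKM in WT. HSFA6A (AT5G43840), a heat shock factor gene, had 0.139 FPKM in WT and 4.47 FPKM in brd1,2,13. NAC019 (AT1G52890), a NAC factor gene, had 6.201 and 24.4 FPKM, and NAC055 (AT3G15500), its close relative, had 3.34 and 10.4 FPKM. RD26 (AT4G27410), the third of these NAC genes, had 18.8 FPKM in WT and 41.1 FPKM in brd1,2,13. HB-12 (AT3G61890), a homeodomain factor gene, had 32.9 and 75.8 FPKM. MYB60 (AT1G08810), a factor of guard cells, was lower at 24.7 and 15.5 FPKM without reaching 2-fold. Outside the list and named for its high ratio, AFP1 (AT1G69260) had 3.47 FPKM in WT and 19.3 FPKM in brd1,2,13 in an overlapping record. It encodes a protein that binds the factor ABI5. The CBF and cold regulators, by contrast, had a median log2 ratio of 0.01 and 1 of 8 past 2-fold, and 6 others of the list were below the floor.

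In the metabolism that protects cells from water loss, most genes stayed under the 2-fold limit. Of 20 osmolyte genes, 5 were at least 2-fold higher and none lower, against 3.21% and 1.27% of all records. The list's median log2 ratio was 0.13. P5CS1 (AT2G39800), the gene of the committed step of proline synthesis, had 75.4 FPKM in WT and 262 FPKM in brd1,2,13 in a record that overlaps another. GOLS2 (AT1G56600), a drought-induced galactinol synthase gene, had 3.29 and 13.3 FPKM. MIPS1 (AT4G39800), which encodes the enzyme that makes inositol phosphate, was lower at 428 FPKM in WT and 219 FPKM in brd1,2,13, just short of 2-fold. Among 21 genes of wax, cutin and suberin synthesis, 3 were at least 2-fold higher, among them CER1 (AT1G02205), a gene of alkane wax synthesis, with 11.5 FPKM in WT and 30.04 FPKM in brd1,2,13. The list as a whole lay slightly the other way, with 13 of 21 genes below WT and a median log2 ratio of -0.18.

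Promoters of 3 ABA-response genes past 2-fold are shown, chosen for their density of ACGTG. They are the 3 of 22 such members with the most places within the 250 bases shown, and each sequence gives the bases before the gene's start in the RefSeq annotation of TAIR10.1, written 5′ to 3′ on the gene's strand. Capitals mark ACGTG on either strand, so that CACGT is the same core read on the other strand and CACGTG counts as 2 overlapping places. The windows are chr1:19619474-19619723 on the plus strand for LEA7, chr3:3585851-3586100 on the minus strand for PP2CA and chr1:2282829-2283078 on the minus strand for HAI2. LEA7 and PP2CA hold 5 places each and HAI2 holds 4. HAI1, HSFA6A, COR15B, XERO2, NAC055 and HB-12, which are also among the 22, hold none within the 250 bases before their starts.
LEA7: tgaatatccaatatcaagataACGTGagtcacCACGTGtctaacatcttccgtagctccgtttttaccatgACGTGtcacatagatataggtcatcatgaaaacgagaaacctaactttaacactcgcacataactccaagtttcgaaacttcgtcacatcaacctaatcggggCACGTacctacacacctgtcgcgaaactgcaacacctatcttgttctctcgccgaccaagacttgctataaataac
PP2CA: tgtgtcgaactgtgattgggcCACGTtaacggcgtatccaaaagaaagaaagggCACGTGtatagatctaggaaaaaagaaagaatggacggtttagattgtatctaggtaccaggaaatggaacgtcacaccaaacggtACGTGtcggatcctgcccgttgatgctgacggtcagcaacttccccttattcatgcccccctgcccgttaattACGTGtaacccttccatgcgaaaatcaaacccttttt
HAI2: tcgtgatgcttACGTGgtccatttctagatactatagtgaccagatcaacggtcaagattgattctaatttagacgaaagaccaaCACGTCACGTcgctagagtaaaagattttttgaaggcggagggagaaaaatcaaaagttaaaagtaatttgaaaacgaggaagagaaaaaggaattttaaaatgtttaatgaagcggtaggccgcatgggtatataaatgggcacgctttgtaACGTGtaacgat

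Across the genome, ACGTG lay on either strand within a window of 300 bases (250 before to 50 after the start) in 26.7% of the promoters of 27431 protein-coding genes and in 28.3% of the 15410 with a record that passed the floor. It lay in 47.7% of the 497 promoters of higher genes and in 30.5% of the 187 of lower genes. The longer CACGTG, known as the G-box, contains ACGTG and lay in 18.5% of promoters of higher genes against 9.14% of those that passed. CCGAC, the core of the element that CBF and DREB factors bind, lay in 17.7% against 16.3%, so the 2 shares were close. TTGAC, the core of the element that WRKY factors bind, lay in 58.1% against 51.0%. In the LEA, dehydrin and COR list, 8 of the 9 higher members held ACGTG, and among the response factors 7 of the 10. In the whole lists it lay in 13 of 18 and 10 of 17 promoters, so members under the limit often held it as well. The circadian clock list held it in 10 of 10 with none past 2-fold. A match describes the letters of the window and does not show a bound site.

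**Figure D2:**
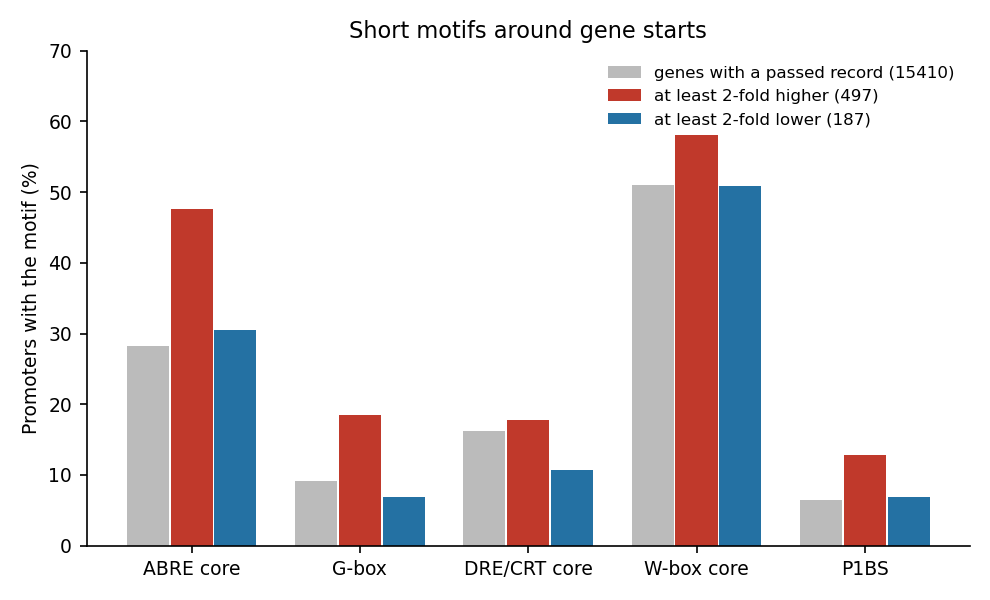
Percent of promoters (y axis, from 0) with each short motif on either strand within 250 bases before to 50 after the start, for genes with a passed record (grey), at least 2-fold higher (red) and at least 2-fold lower (blue) in brd1,2,13. Motifs are ACGTG (ABRE core), CACGTG (G-box), CCGAC (DRE/CRT core), TTGAC (W-box core) and GNATATNC (P1BS), and the bars are shares with no error. The red bar exceeds the grey one most for ACGTG, with 47.7% against 28.3%.

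Genes of the response to phosphate starvation were another group with higher members. Plants short of phosphate raise transporters, secreted phosphatases and enzymes that replace phospholipids by galactolipids, under the factor PHR1, which binds GNATATNC. SPX proteins hold PHR1 back when phosphate is ample. The microRNA miR399 lowers PHO2, whose product removes phosphate transporters, and the noncoding RNAs IPS1 and AT4 capture miR399.

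Of 35 phosphate starvation genes that passed the floor, 11 were at least 2-fold higher in brd1,2,13 and none lower, against 3.21% and 1.27% of all records. Of the 35, 31 had a level above that of WT. The list's median log2 ratio was 0.62, and 3 of the 11 were below 1 FPKM in WT. PS2 (AT1G73010, chr1:27464572-27466256), a phosphatase gene, had 30.9 FPKM in WT and 154 FPKM in brd1,2,13. AT4 (AT5G03545) had 111 and 285 FPKM, and IPS1 (AT3G09922) had 34.8 and 84.2 FPKM. Both noncoding RNAs that capture miR399 were thus higher.

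Records of 2 miR399 precursors were higher too. MIR399D (AT2G34202) had 0.366 FPKM in WT and 7.62 FPKM in brd1,2,13, and MIR399C (AT5G62162) had 0.387 and 2.42 FPKM. PHO2 (AT2G33770), the target of miR399, had 61.0 FPKM in WT and 40.1 FPKM in brd1,2,13. Its log2 ratio of -0.60 lay just beyond the lower end of the middle 95% of records of 20 FPKM or more (-0.55). Mature miRNAs were not measured. In all, 5 of 22 miRNA records that passed the floor were at least 2-fold higher and none lower, against 3.21% and 1.27% of all records. The other 3 were MIR827, whose product is also raised by phosphate starvation, with 1.04 and 2.32 FPKM, MIR172B with 0.584 and 1.52 FPKM, and MIR171c with 0.872 and 2.14 FPKM. Of the 5, all but MIR827 were below 1 FPKM in WT and passed the floor only through brd1,2,13.

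Genes that act on phosphate uptake and recycling followed. PHT1;5 (AT2G32830), a phosphate transporter gene, had 1.04 FPKM in WT and 12.2 FPKM in brd1,2,13, and PHT1;8 (AT1G20860), another one with an overlapping record, had 0.374 and 1.77 FPKM. MGD3 (AT2G11810), a galactolipid synthase gene, had 15.6 FPKM in WT and 43.2 FPKM in brd1,2,13. RNS1 (AT2G02990), the gene of a secreted ribonuclease, had 4.54 and 34.1 FPKM, and PAP17 (AT3G17790), a purple acid phosphatase gene with an overlapping record, stayed just short of 2-fold at 63.8 and 125 FPKM. A record that joins SPX3 with AT2G45135 had 10.2 and 60.0 FPKM. A record that joins the phospholipase genes NPC4 and NPC5 had 4.68 and 18.3 FPKM. SPX1 (AT5G20150) differed less, with 118 FPKM in WT and 172 FPKM in brd1,2,13, and PHR1 (AT4G28610) stood at nearly the same level, with 44.6 and 45.0 FPKM. Outside the list and chosen after their values were seen, PEPC1 (AT1G17710) had 27.6 and 138 FPKM and OCT1 (AT1G73220), a carnitine transporter gene, had 4.11 and 21.2 FPKM.

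The promoters of MIR399D, MIR399C and PS2 are shown because each of these higher members holds GNATATNC, where N is any base. Within the 250 bases shown, 5 of the 11 higher members hold 1 place each, and these 3 have the highest ratios of the 5. The place is in capitals. Each gives the 250 bases before the start, 5′ to 3′ on the gene's strand, from the RefSeq annotation of TAIR10.1. The windows are chr2:14443078-14443327 on the minus strand, chr5:24962235-24962484 on the plus strand and chr1:27466349-27466598 on the minus strand, and the deposited records of both miRNA genes reach into theirs.
MIR399D: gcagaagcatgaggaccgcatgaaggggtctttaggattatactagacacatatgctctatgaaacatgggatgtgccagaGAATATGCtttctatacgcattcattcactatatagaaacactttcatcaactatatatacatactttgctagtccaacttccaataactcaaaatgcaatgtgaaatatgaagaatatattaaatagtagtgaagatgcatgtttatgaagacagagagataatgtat
MIR399C: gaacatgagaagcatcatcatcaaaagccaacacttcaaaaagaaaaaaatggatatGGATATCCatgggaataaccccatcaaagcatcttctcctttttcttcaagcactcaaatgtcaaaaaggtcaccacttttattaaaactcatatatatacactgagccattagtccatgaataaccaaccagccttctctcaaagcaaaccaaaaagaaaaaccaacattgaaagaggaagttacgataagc
PS2: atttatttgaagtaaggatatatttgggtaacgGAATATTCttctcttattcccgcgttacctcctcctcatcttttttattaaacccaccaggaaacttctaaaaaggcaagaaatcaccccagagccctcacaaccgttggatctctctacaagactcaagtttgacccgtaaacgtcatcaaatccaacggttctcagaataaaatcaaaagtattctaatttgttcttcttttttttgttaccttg

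GNATATNC lay within the window of 300 bases in 6.53% of promoters of genes that passed the floor, in 12.9% of those of higher genes and in 6.95% of those of lower genes. In the phosphate starvation list it lay in 19 of 35 promoters (54.3%), and in 6 of the 11 of higher members. The motif was thus about as frequent in members under the 2-fold limit as in those past it.

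The other 2 mutants gave different levels for these genes. All 3 mutants are set against the same WT value, so the values are given side by side only. PS2 had 19.6 FPKM in brm-1 and 11.6 FPKM in the combined mutant, below its 30.9 FPKM in WT and its 154 FPKM in brd1,2,13. AT4 had 57.4 FPKM in brm-1 and 46.4 FPKM in the combined mutant, and MIR399D had 0.0553 and 0.0737 FPKM. The median log2 ratio to WT over the 35 phosphate genes was -0.45 in brm-1 and -0.68 in combined-mutant seedlings, against 0.62 in brd1,2,13. For the LEA, dehydrin and COR list the medians were 1.12 in brd1,2,13, 0.64 in brm-1 and 0.43 for the combined mutant. LEA7 had 45.4 FPKM in brm-1 and 14.1 FPKM in the combined mutant, both above WT and below brd1,2,13. For the clade A PP2Cs the medians were 0.84, 0.17 and -0.04. HAI1 had 16.5 FPKM in brm-1 and 7.02 FPKM in the combined mutant. NCED3 stood at the WT level in both, with 1.19 and 1.06 FPKM. These orders were not tested, since each genotype has 1 value.

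**Figure D3:**
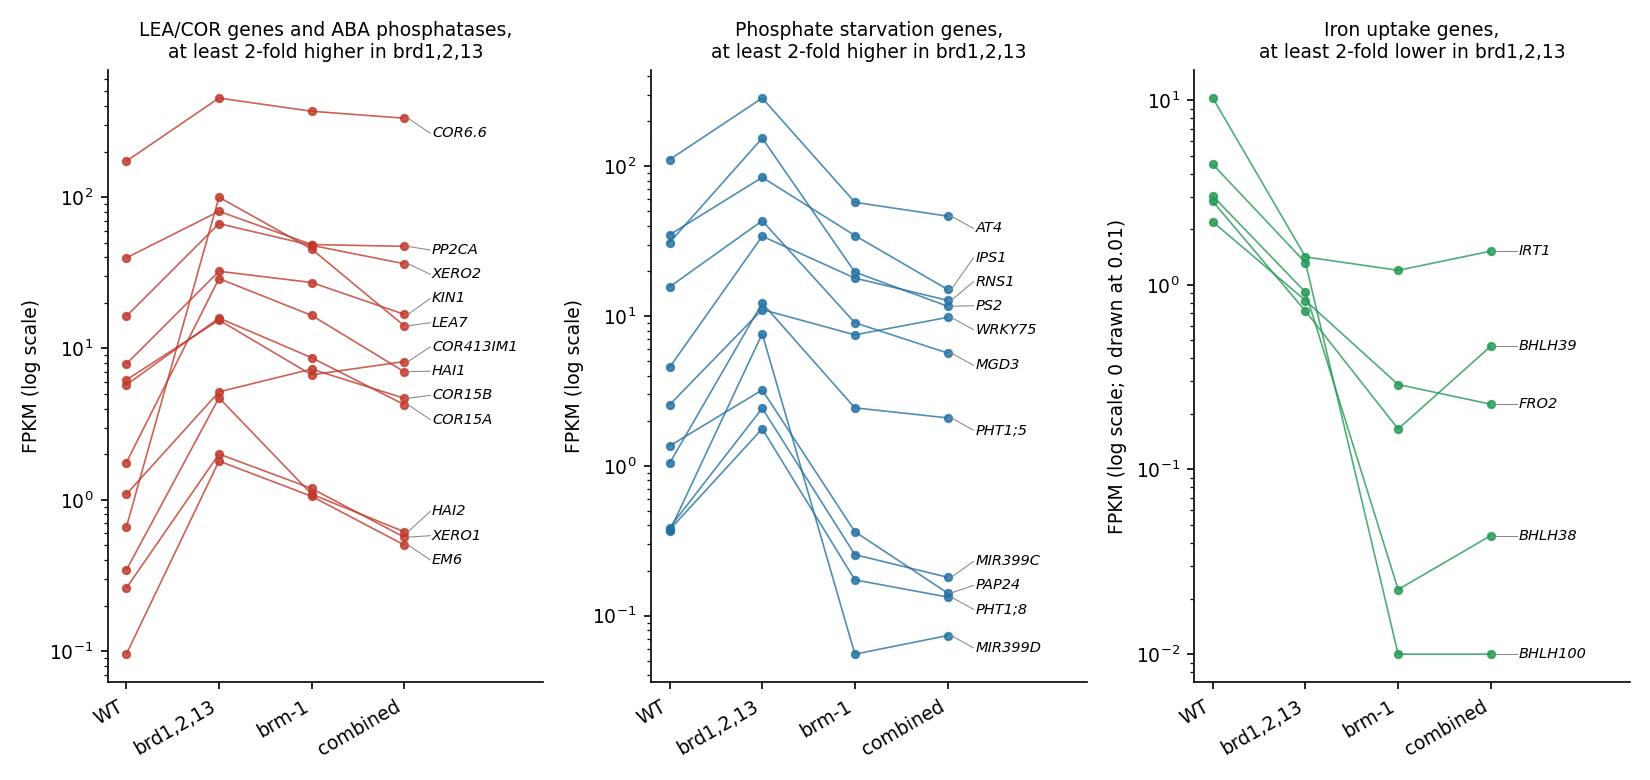
FPKM on a log scale in WT, brd1,2,13, brm-1 and the combined mutant for list members at least 2-fold higher (ABA-related, left, and phosphate starvation, middle) or lower (iron uptake, right) in brd1,2,13. Each point is 1 value per genotype with no error, lines join the values of a gene, and 0 is drawn at 0.01. PS2 peaks at 154 FPKM in brd1,2,13 and is at 19.6 FPKM in brm-1, whereas LEA7 is above WT in all 3 mutants.

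Over all 573 higher records, the median log2 ratio to the shared WT value was 1.51 in brd1,2,13, 1.37 in brm-1 and 1.25 for the combined mutant. Over the 227 lower records it was -1.33, -1.48 and -1.52. The WT value that took part in choosing these records is shared by all 3 ratios, so nothing is read from these medians.

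Genes of iron uptake were lower in part. Roots short of iron acidify the soil, reduce iron with FRO2 and import it with IRT1, under bHLH factors. Of 27 genes that passed the floor, 5 were at least 2-fold lower and 1 at least 2-fold higher, against 1.27% and 3.21% of all records. Of the 5 lower genes, 3 were below 1 FPKM in brd1,2,13, and the higher one was below it in WT. The list's median log2 ratio was 0.02, so the list as a whole did not shift. IRT1 (AT4G19690, chr4:10707426-10709015), the main iron importer gene of the root, had 10.3 FPKM in WT and 1.42 FPKM in brd1,2,13, 7.24-fold less and the lowest ratio among the genes named for their ratios. FRO2 (AT1G01580) had 2.19 and 0.821 FPKM. The factor genes BHLH38 (AT3G56970), with 3.02 and 0.911 FPKM, BHLH39 (AT3G56980), with 2.83 and 0.720 FPKM, and BHLH100 (AT2G41240), with 4.49 and 1.32 FPKM, completed the 5. FIT (AT2G28160), the factor with which these bHLH proteins pair, had 3.03 and 2.74 FPKM and was close to its WT level.

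NAS2 (AT5G56080), a gene of nicotianamine synthesis, was the iron gene of the opposite direction, with 0.0941 FPKM in WT and 2.19 FPKM in brd1,2,13. Lower as well were the neighbours AT1G47395 and AT1G47400, small genes without a symbol in the reference. AT1G47400 had 20.5 FPKM in WT and 7.97 FPKM in brd1,2,13, and AT1G47395 had 31.4 and 13.6 FPKM. With an unnamed record they formed a run of 3 lower records at chr1:17383034-17389534. In brm-1, IRT1 had 1.197 FPKM, BHLH38 0.0224 FPKM and AT1G47400 0.724 FPKM, while BHLH100 was listed at 0.

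Several of these iron genes are transcribed in the root, and root markers were lower in the same comparison. The summed FPKM of 8 endodermis markers was 48.9 in WT and 28.0 in brd1,2,13, and that of 5 root hair markers was 83.8 and 59.2. The summed FPKM of 5 green tissue markers was 38752 and 36217. In bulk RNA, fewer cells of a type and less RNA per cell cannot be told apart, and the part of root content in the iron result was not tested. Of 5 seed and of 5 pollen markers, 4 each were below the floor in both genotypes. The exceptions were OLEO4, with 13.0 FPKM in WT and 8.68 FPKM in brd1,2,13, and AGL65, with 3.42 and 2.43 FPKM. Of the flower markers 3 of 4 were below the floor.

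The endodermis lines the root's inner tissues, and its Casparian strip seals the space between cells. Of 13 genes of the endodermis list, 12 were below their WT level, with a median log2 ratio of -0.66. At least 2-fold lower were 2 of the 13, against 1.27% of all records, and these 2 were below 1 FPKM in brd1,2,13. CASP4 (AT5G06200), a gene of a strip scaffold protein, had 2.05 FPKM in WT and 0.533 FPKM in brd1,2,13, and CASP5 (AT5G15290), with an overlapping record, had 1.107 and 0.538 FPKM. CASP1 (AT2G36100) had 15.9 and 8.60 FPKM. In the root hair list, 14 of 19 genes were below WT and none was past 2-fold, with a median of -0.29. The auxin list had 30 of 37 genes below WT and a median of -0.16, with 1 gene at least 2-fold lower.

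That auxin gene was AIR1 (AT4G12550, chr4:7439115-7439805), an auxin-induced gene of roots, with 22.8 FPKM in WT and 3.15 FPKM in brd1,2,13. Its family neighbours, looked at after its value was seen, split. AT4G12510 had 13.9 and 4.24 FPKM, AT4G12545 had 10.8 and 3.296 FPKM, and AT5G46900, elsewhere in the genome, had 16.6 and 5.44 FPKM. AZI1 (AT4G12470), a family gene of defence priming in the same cluster, stood at 352 and 321 FPKM, and AT4G12490 was higher at 33.0 and 54.5 FPKM. AXR3 (AT1G04250), an auxin-response repressor gene that the list did not hold, had 107 FPKM in WT and 47.9 FPKM in brd1,2,13.

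**Figure D4:**
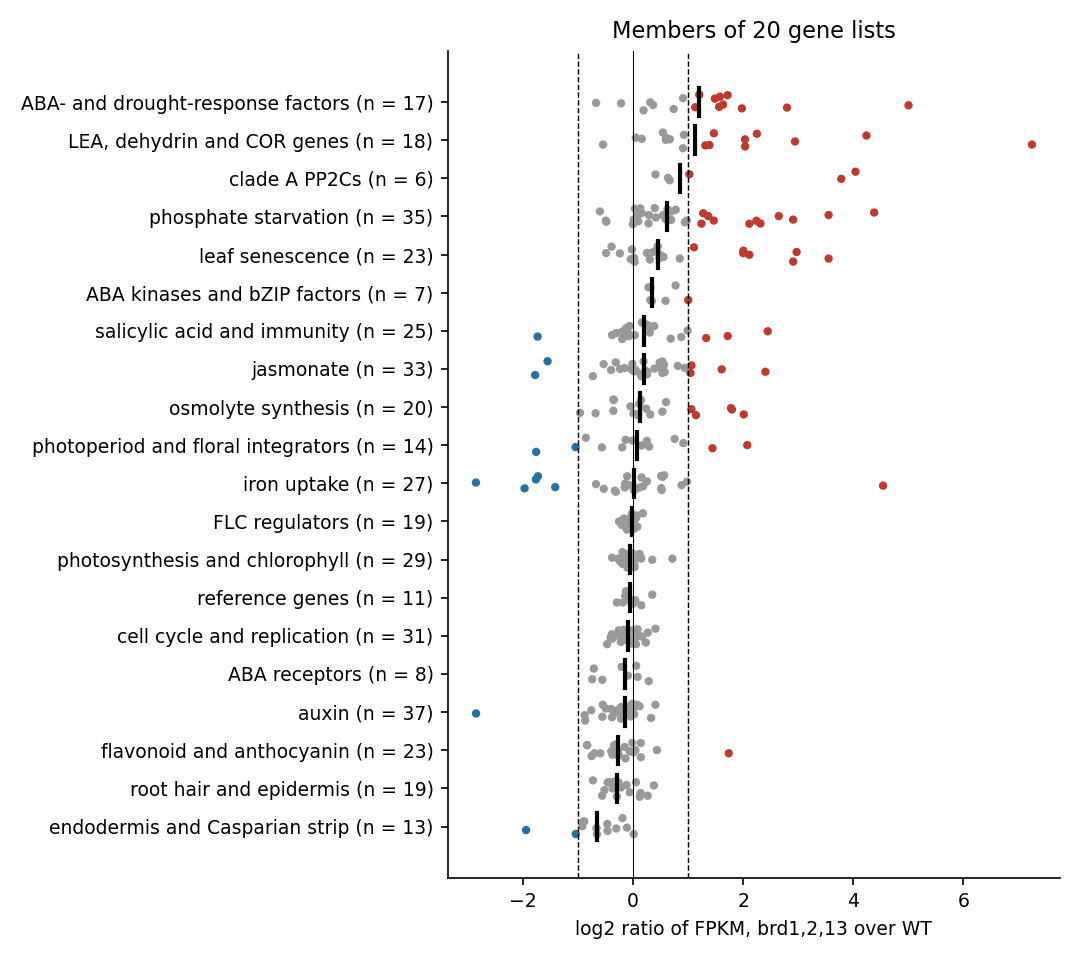
Log2 ratio of FPKM in brd1,2,13 over WT (x axis) for members of 20 gene lists that passed the floor, with the number of genes beside each name. Points are genes, red at least 2-fold higher and blue at least 2-fold lower, thick ticks are list medians and dashed lines mark a 2-fold difference. ABA- and drought-response factors have a median of 1.2, and the endodermis list has the lowest median, -0.66.

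Nitrogen genes showed no common direction. Of 26, 2 were at least 2-fold higher and 1 lower, against 3.21% and 1.27% of all records. AMT1;2 (AT1G64780), an ammonium transporter gene of the root, had 84.0 FPKM in WT and 28.4 FPKM in brd1,2,13, and ASN1 (AT3G47340), a gene of asparagine synthesis, had 8.54 and 24.4 FPKM. Metals other than iron were likewise mixed. HIPP22 (AT1G22990), a gene of a heavy-metal-associated protein, had 3.08 FPKM in WT and 39.4 FPKM in brd1,2,13, COPT2 (AT3G46900), a copper transporter gene, had 63.7 and 29.6 FPKM, and MT1B (AT5G56795), a metallothionein gene, had 20.8 and 7.18 FPKM.

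Flowering regulators differed on both sides. FLC (AT5G10140, chr5:3173497-3179448), a MADS repressor of flowering, had 1.58 FPKM in WT and 8.04 FPKM in brd1,2,13, 5.08-fold more. It was the 1 gene past 2-fold of 13 floral repressors, and none of 19 FLC regulators was past 2-fold (median log2 ratio -0.02). Over all records, 3.21% were at least 2-fold higher and 1.27% lower. SOC1 (AT2G45660), which promotes flowering and is repressed by FLC, was also higher, with 17.8 and 48.3 FPKM. FUL (AT5G60910), another promoter of flowering, had 0.680 FPKM in WT and 2.86 FPKM in brd1,2,13. AGL24 (AT4G24540), a MADS gene that promotes flowering with SOC1, was lower, with 27.4 and 8.07 FPKM. TFL1 (AT5G03840), which keeps the shoot tip vegetative, had 1.82 and 0.883 FPKM. FT, the mobile flowering signal gene, stood at 2.75 and 2.72 FPKM. Repressors and promoters of flowering thus did not divide by direction.

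Genes of the change from juvenile to adult growth were higher in part. The SPL factors, which miR156 holds down in young plants, include SPL4 (AT1G53160), with 5.54 FPKM in WT and 13.6 FPKM in brd1,2,13. SPL3 (AT2G33810), with an overlapping record, had 1.82 and 4.21 FPKM, and SPL5 (AT3G15270), also overlapping, had 1.33 and 3.14 FPKM. Of 13 genes in the list, 4 were at least 2-fold higher, against 3.21% of all records. MIR172B was the last of these 4 and was below 1 FPKM in WT. Of the 13, 8 were above WT and 5 below it, with a median log2 ratio of 0.25. A record that joins MIR156D, a miR156 precursor gene, with AT5G10946 was 1.89-fold lower, with 5.25 FPKM in WT and 2.78 FPKM in brd1,2,13. This joint record was under the 2-fold limit and was named after its value was seen. SEP3 (AT1G24260), a floral organ gene, had 2.82 FPKM in WT and 7.83 FPKM in brd1,2,13, and 23.4 FPKM in brm-1. The other flower markers AG, AP3 and CRC were below 1 FPKM in both genotypes.

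Among 23 leaf senescence genes, 7 were at least 2-fold higher and none lower, against 3.21% and 1.27% of all records. The list's median log2 ratio was 0.45. SAG29 (AT5G13170), a sugar transporter gene of ageing leaves, had 25.1 FPKM in WT and 101 FPKM in brd1,2,13, and DMP1 (AT3G21520), with an overlapping record, had 1.25 and 9.77 FPKM. NYE2 (AT4G11910), a gene of chlorophyll breakdown, had 0.877 and 3.52 FPKM. RNS1, PHT1;5 and the factor gene WRKY75 (AT5G13080), with 2.56 and 11.04 FPKM, stand in both this list and the phosphate list, so the 2 counts are not separate. Photosynthesis genes stayed near their WT level: none of 29 was past 2-fold and their median was -0.06.

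Defence hormones showed small shifts. In the salicylic acid list, 3 of 25 genes were at least 2-fold higher and 1 lower, against 3.21% and 1.27% of all records. The median log2 ratio was 0.19 in brd1,2,13 beside 1.42 in brm-1. With a floor of 5 FPKM the median in brd1,2,13 was -0.067, of the opposite sign. PR1 (AT2G14610), the classical marker of this pathway, had 53.8 FPKM in WT, 177 FPKM in brd1,2,13 and 293 FPKM in brm-1. PBS3 (AT5G13320), a gene of salicylic acid synthesis, had 2.14 and 11.6 FPKM. PCC1 (AT3G22231), a pathogen-responsive gene, was lower with 66.5 and 19.97 FPKM, and so was its neighbour AT3G22235 with 235 and 72.4 FPKM, whereas AT3G22240 beside them had 50.3 and 47.4 FPKM. In the jasmonate list, 4 of 33 genes were at least 2-fold higher and 2 lower, against 3.21% and 1.27% of all records. The list's median was 0.19 beside 1.49 in brm-1. The gene of jasmonate methylation, JMT (AT1G19640), was one of the lower ones with 3.74 and 1.09 FPKM. LOX3 (AT1G17420), a gene of jasmonate synthesis, was higher with 2.80 and 8.55 FPKM.

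Other single genes stood out against quiet lists. ARR15 (AT1G74890), a gene of a cytokinin-response repressor, had 5.63 FPKM in WT and 0.945 FPKM in brd1,2,13 and was the 1 gene past 2-fold of 23 cytokinin genes. PAP2 (AT1G66390), also called MYB90, a factor gene of anthocyanin synthesis, had 5.28 FPKM in WT and 17.596 FPKM in brd1,2,13, while none of the other 22 flavonoid genes was past 2-fold and the list's median was -0.27. In brm-1 it had 1.38 FPKM. Ethylene genes had 2 of 25 higher and 1 lower, against 3.21% and 1.27% of all records.

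The other genes with the highest ratios and at least 5 FPKM were of varied kinds. GLYI7 (AT1G80160), a glyoxalase gene, had 0.249 FPKM in WT and 5.33 FPKM in brd1,2,13, DIP2 (AT5G03210), annotated as a ubiquitin ligase gene, had 2.88 and 26.9 FPKM, and ELI3-2 (AT4G37990), an alcohol dehydrogenase gene, had 1.57 and 10.4 FPKM. TH8 (AT1G69880), a thioredoxin gene with an overlapping record, had 5.28 and 29.3 FPKM, and BGLU45 (AT1G61810), a beta-glucosidase gene, had 1.23 and 6.56 FPKM. On the lower side, ratios were smaller. NIC3 (AT5G23220), a nicotinamidase gene, had 5.18 FPKM in WT and 1.89 FPKM in brd1,2,13, PGL5 (AT5G24420), a gene of the pentose phosphate pathway, had 11.6 and 4.49 FPKM, and HOL2 (AT2G43920), a methyltransferase gene, had 21.8 and 8.52 FPKM. PDF2.5 (AT5G63660), a defensin-like gene, was the most abundant of these with 82.7 and 34.4 FPKM. XTH17 (AT1G65310), a gene of a cell wall enzyme, had 28.7 and 13.1 FPKM, and KAN3 (AT4G17695), a gene of a KANADI factor, had 7.51 and 3.33 FPKM. LAC8 (AT5G01040), a laccase gene with an overlapping record, had 6.38 and 2.61 FPKM, and MLP168 (AT1G35310) had 5.09 and 2.24 FPKM. SAUR9 (AT4G36110), a gene of the auxin-related SAUR family, had 8.06 and 3.62 FPKM, and GSTU22 (AT1G78340), a glutathione transferase gene, had 5.92 and 1.64 FPKM in 1 record and 7.17 and 8.23 FPKM in another. KAN3, MLP168 and SAUR9 were under the 2-fold limit with 1 FPKM added to both values, at log2 ratios of -0.98, -0.91 and -0.97.

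No member was past 2-fold in the lists of SWI/SNF subunits other than those mutated (10 genes, median log2 ratio -0.03), Polycomb and H3K27 demethylase genes (12 genes, -0.04), cell cycle and replication (31 genes, -0.09), the circadian clock (10 genes, 0.07) or reference genes (11 genes, -0.06). Over all records, 3.21% were at least 2-fold higher and 1.27% lower. Gibberellin genes had 1 of 22 higher and 2 lower, and touch and calcium genes had 2 of 18 higher. Detoxification and redox genes had 2 of 23 higher, and guard cell and trichome markers had 2 of 13 higher. TMM (AT1G80080), a receptor-like gene of stomatal patterning with an overlapping record, was one of the last, with 8.72 FPKM in WT and 19.6 FPKM in brd1,2,13. The largest differences in FPKM lay mostly in abundant transcripts with small ratios. MT3 (AT3G15353), a metallothionein gene, had the largest gain, from 2622 FPKM in WT to 3389 FPKM in brd1,2,13, a ratio of 1.29. The other 9 of the 10 largest gains were MT2B, LHB1B1, PSAN, FSD1, COR6.6, PSBR, PSBO1, PSAE-1 and ELP. Of these, COR6.6 was 2.61-fold higher and LHB1B1 (AT2G34430), a light-harvesting gene, 1.62-fold higher, with 687 and 1112 FPKM. The largest loss was that of LHB1B2 (AT2G34420), another light-harvesting gene, from 9171 to 7870 FPKM. RBCS1A (AT1G67090), a gene of the small Rubisco subunit, had 16716 and 15606 FPKM. The other 8 of the 10 largest losses were LHCB1.1, CAB3, RCA, LHCB2.1, RBCS3B, LHCB2.2, RBCS2B and LTP1, and the 10 ranged from 1.071-fold to 1.201-fold lower. Several of these belong to families of near-identical genes, among which the division of reads is uncertain.

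Near-identical neighbours need care. LTP3 (AT5G59320), a lipid transfer protein gene, had 4.28 FPKM in WT and 87.3 FPKM in brd1,2,13, and its neighbour LTP4 (AT5G59310) had 0.630 and 31.4 FPKM. AT5G59330, the next gene of the cluster, was lower with 14.6 and 2.39 FPKM. How the authors' counting divided reads among these similar genes is not known from the sources used, and the opposite directions are uncertain. Of the lipid transfer protein list, 2 of 13 genes were at least 2-fold higher, against 3.21% of all records, and these were LTP3 and LTP4. CAT3 (AT1G20620), a catalase gene, had 0.316 FPKM in WT and 30.02 FPKM in brd1,2,13, but its reads are split between this record and one joint with CAT1, which had 418 and 905 FPKM.

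Records listed at 0 in 1 genotype have no ratio. Among records with status OK, 13 were at 0 in WT and at 1 FPKM or more in brd1,2,13, and 5 were the reverse. MRD1 (AT1G53480) had 44.0 FPKM in WT and was listed at 0 in brd1,2,13, and it had 0.00948 FPKM in brm-1 and 0.140 FPKM in the combined mutant, so it was near 0 in all 3 mutants. HEI10 (AT1G53490), a meiotic crossover gene, had 5.18 FPKM in WT and 1.36 FPKM in brd1,2,13. The records of MRD1 and HEI10 cover the same stretch, chr1:19963022-19969757, so the division of reads between them is uncertain. LEA18 (AT2G35300), a LEA gene, was listed at 0 in WT and had 2.64 FPKM in brd1,2,13. GASA3 (AT4G09600), a gene of the gibberellin-regulated GASA family, was listed at 0 in WT and had 1.08 FPKM in brd1,2,13. CSLG2 (AT4G24000), a cellulose synthase-like gene, was listed at 0 in WT and had 4.01 FPKM in brd1,2,13. The 13 records at 0 in WT had between 1.05 and 5.97 FPKM in brd1,2,13, and the other 4 at 0 in brd1,2,13 had between 1.18 and 6.098 FPKM in WT. An exact 0 in a table without counts can be a failed estimate.

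Over the 5 nuclear chromosomes, the share at least 2-fold higher was between 2.96% on chromosome 4 and 3.39% on chromosome 3, and the share lower between 0.945% on chromosome 2 and 1.58% on chromosome 3. Of 17834 pairs of neighbouring records, 41 were both higher, 10 both lower and 17 of opposite direction, and 5 runs of 3 higher records and 1 run of 3 lower records were found. Whether like directions lay side by side more often than unlike ones was not tested. By kind of gene, 496 of 15515 protein-coding records were at least 2-fold higher and 194 lower, and of 92 long noncoding RNA records 7 were higher and 1 lower. Of 76 records classed only as noncoding RNA, 11 were higher and 1 lower. Of 63 transcribed pseudogene records 7 were higher and none lower, and of 79 pseudogene records 6 were higher and 4 lower. Over all kinds, 573 of 17841 records were higher and 227 lower.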

How the data were processed

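RNA sequencing libraries of 14-day-old seedlings (3 of WT and 3 of brd1,2,13) were processed by the authors, who list in their submission notes TAIR10 as genome and Cuffdiff 2.1.1, Cufflinks 2.1.1 and TopHat as tools. Use of strand and read filters are not given in the sources used here. Overlapping and antisense genes cannot be told apart. The deposited FPKM values are the authors' value of each genotype, 1 per record. The deposited table also holds the authors' own fold changes, test statistics, p and q values and calls, which were not used. A difference of total RNA per cell is not visible in FPKM.

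From these values, log2 ratios were computed with Python 3.11.15 and pandas 2.3.3, with no pseudocount. Records had status OK, a value above 0 in both genotypes and at least 1 FPKM in the higher one, and called means a 2-fold difference. Steps were tested on simulated data. In all, 1944 records join several genes, 7465 overlap another and 767 belong to genes split over records. Coordinates of genes are those of the table. Promoter windows and symbols came from RefSeq's TAIR10.1, which held 29057 of the 29744 single-gene records, all on the same chromosome and 29056 overlapping the same gene. The members of the comparison and the 47 gene lists (1055 entries, 952 with a record of their own, 812 passed) were chosen with earlier results of these data known. Genes were named from the mutated genes, the 20 highest and 20 lowest ratios among records of 1 gene with a symbol and at least 5 FPKM, the 10 largest differences in FPKM each way, records listed at 0 in 1 genotype and list members, those past 2-fold first. Other genes were named after their values were seen. Alternatives were other pseudocounts, floors, folds and scalings and the leaving out of overlapping records.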

Additional observations from a re-analysis of the deposited data

How the results depend on the processing

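The counts of 573 higher and 227 lower records became 327 and 98 with 1 FPKM added to both values, 255 and 93 with a floor of 5 FPKM, 1226 and 776 at a fold of 1.5, and 267 and 74 at a fold of 3. They stayed within 1.5 times with 0.1 FPKM added (527 and 202), without a floor (732 and 325), under both scalings (571 and 229, 575 and 223) and with overlapping and joint records left out (382 and 159). List medians of the log2 ratio moved by more than 0.15 in few cases. With 1 FPKM added, the median was -1.17 for the mutated genes, 0.84 for ABA- and drought-response factors and -0.45 for the endodermis. With a floor of 5 FPKM it was 0.66 for clade A PP2Cs, 0.91 for LEA, dehydrin and COR genes, 0.74 for the response factors, -0.14 for photoperiod genes, 0.63 for floral organ genes, -0.067 for salicylic acid genes and -0.14 for guard cell and trichome markers, and the pollen list gave no value. Without overlapping records it was -1.54 for the mutated genes, 2.403 for clade A PP2Cs, 0.92 for LEA, dehydrin and COR genes, 0.63 for floral organ genes and -0.47 for the endodermis. Adding 1 FPKM moved 33 of 64 named genes by more than 0.15, none reversed, and neither scaling moved any. No paired analysis was possible because the table holds 1 value per genotype, and leaving out a replicate could not be run for the same reason. Depth and spread between libraries are unknown, so differences near 2-fold at low FPKM cannot be judged.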
